A study of Mus musculus with 5 samples.

Results

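The nuclear genes for subunits of the mitochondrial oxidative phosphorylation complexes were examined in 5 mouse embryonic stem cell (ESC) lines. Members were the non-control probes of the array whose gene name starts with Nduf followed by a, b, c, s or v and a digit, with Cox4 to Cox8, with Uqcr or with Atp5, or is Sdha, Sdhb, Sdhc or Sdhd. This rule uses names and no measured value. It gave 80 genes with 108 probes, of 27962 gene names and 41174 probes in all. There were 35 genes of complex I, 4 of complex II, 7 of complex III, 17 of complex IV and 15 of complex V. The other 2 genes matched by name only, since Cox4nb is now Emc8, a subunit of the ER membrane protein complex, and Atp5s is now Dmac2l, an ATP synthase coupling factor. Both are kept in the counts and named apart. Ndufa4 is counted in complex I by its name, though it was later assigned to complex IV.

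The study asked what the loss of ECAT11, an ESC-enriched gene also called L1td1 whose protein resembles the first open reading frame of the L1 retrotransposon, does to mouse ESCs. RNA of each line, carrying the dye Cy3, went to 1 one-colour Agilent array. The wild-type group held RF8, labelled male and of 129sv origin, and #620-2, labelled female and of C57BL6/129sv origin. The ECAT11EGFP/EGFP group, in which an EGFP cassette replaces the ECAT11 coding region on both alleles, held #620-6, labelled female, and #757-1 and #757-2, labelled male, all of C57BL6/129sv origin. All lines other than RF8, #620-2 included, came from blastocysts of crosses between heterozygous mice that descend from targeted RF8 cells, and lines of such blastocysts were set up on SNL feeder cells. RF8 is the parental line and differs from the other 4 in origin. All were grown on gelatin with serum and LIF. The lines are the replicates, and nothing in the labels names separate cultures, so p-values measure only the spread between these 5 samples. Both lines numbered 620 are the female-labelled ones, so the sex label and that number cannot be told apart. The ECAT11 transcript itself is not analysed here.

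Signals are given as log2 of the background-corrected intensity divided by the 75th percentile of the array. Values for the 5 lines are always given in the order RF8, #620-2, #620-6, #757-1 and #757-2. RF8 and both 620 lines shared slide 1, and the 757 lines shared slide 2, where fewer probes were well above background (21260 and 22063, against 26390 to 27181 on slide 1). The weakest signal still well above background was between -6.22 and -5.90 on slide 1, and -4.49 and -4.22 on slide 2. All 8 ESC markers examined were well above background on every array, with a summed signal of 8.89, 9.11, 8.89, 9.06 and 8.91. Some single markers varied more. Zfp42 gave 4.01 in #620-6 and 3.87 in #757-2, but 6.80 in #620-2 and 6.56 in #757-1, with RF8 highest. Nanog ran from 2.54 in RF8 to 4.54 in #620-6. By limma, none of the 8 passed an adjusted p of 0.05 between the genotypes or the sex labels. Whether the lines differ in ESC state was not tested. The 4 Y-linked genes examined were well above background in the 3 male-labelled lines and in neither female-labelled line, and Xist showed the opposite. A list of 12 fibroblast genes had a summed signal of 4.40, 5.98, 6.01, 2.63 and 3.12, and 9 of the 12 genes were well above background on all arrays. S100a4 alone made up most of it in the female-labelled lines, and without this gene the sum was 4.34, 3.81, 3.65, 2.56 and 3.05, with RF8 highest and the 757 lines lowest.

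Oxidative phosphorylation couples the oxidation of NADH and succinate to ATP synthesis at the inner mitochondrial membrane. Complex I (NADH dehydrogenase) and complex II (succinate dehydrogenase) pass electrons to ubiquinone, complex III passes them on to cytochrome c, and complex IV (cytochrome c oxidase) to oxygen. Complexes I, III and IV pump protons, and complex V (ATP synthase) uses the gradient. Some core subunits come from mitochondrial DNA and are no members here. Several complex IV subunits have isoforms known from heart and skeletal muscle, lung or testis. Pluripotent cells use glycolysis and also carry a respiratory chain.

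The ESCs carried signal for nearly the whole set. The brightest probe of 77 of the 80 genes was well above background in all 5 lines, including every gene of complexes I, II, III and V and 14 of the 17 genes of complex IV. All 3 exceptions were tissue isoforms of complex IV (Cox4i2, Cox6a2 and Cox8b). Probes of different genes differ in binding, so their levels are not compared with each other. Each gene is represented by its brightest probe, and a gene was tested where this probe was Present on at least 1 array (78 genes, among 28972 probes tested).

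Levels differed little from line to line. The 77 genes detected everywhere had a median range of 0.29 over the 5 lines on the log2 scale, and 4 of them ranged over more than 1. Over all 20617 probes well above background on every array with a value on each, the median range was 0.60, and over the 5161 of these with a mean signal above 2 it was 0.41. Among the 72 member genes with a mean signal above 2 the median range was 0.29. These genes were brighter, with a median mean signal of 5.02 against 3.41, so the sets are not matched in signal. Uqcrfs1, the Rieske iron-sulfur protein of complex III, varied least (range 0.084). The ranges of Cox8c (1.49), Cox7c (1.43), Cox6b2 (1.26) and the X-linked gene Ndufa1 (1.14) were the widest. Several genes of this set have processed pseudogenes, whose part in a probe's signal was not tested.

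**Figure D1:**
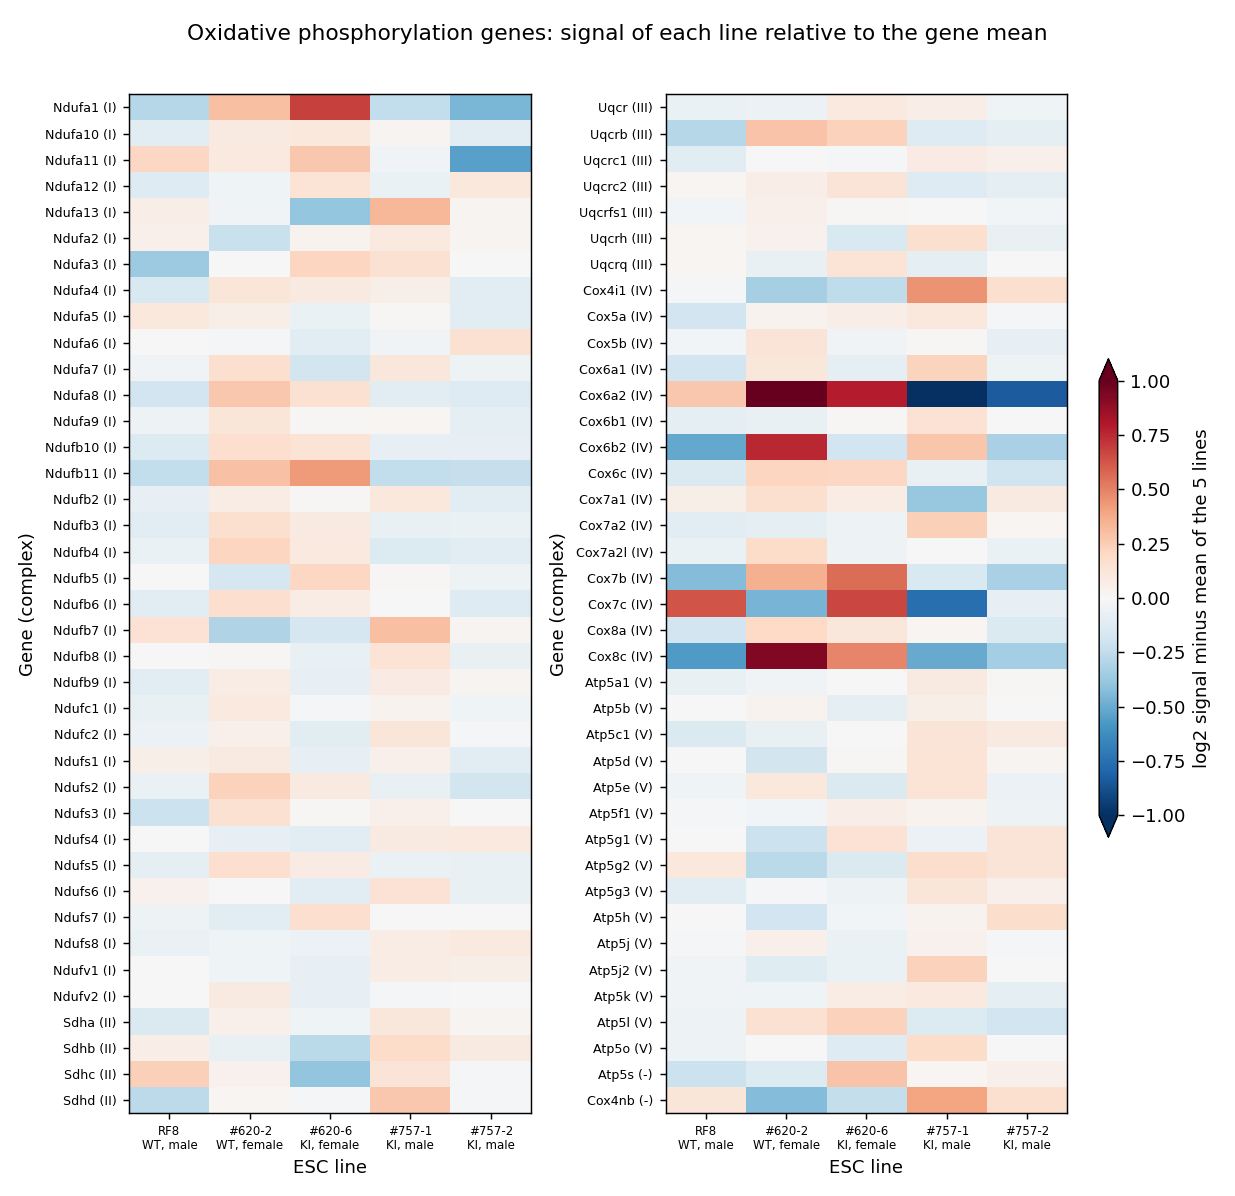
Heat map of the signal of 78 member genes in each ESC line minus the gene's mean over the 5 lines, on the log2 scale from -1 (blue) to 1 (red), with genes in rows grouped by complex, lines in columns, WT for wild-type and KI for ECAT11EGFP/EGFP. Most rows are pale, with a median range of 0.29 among the genes detected on all arrays, while Ndufa1, Ndufb11 and Cox7b are red in both female-labelled lines and Cox6a2, Cox7c, Cox6b2 and Cox8c vary most.

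No member differed detectably between ECAT11EGFP/EGFP and wild-type ESCs. With limma and Benjamini-Hochberg adjustment over all probes, 0 of 78 genes passed an adjusted p of 0.05, with or without a change of more than 2-fold (0.00345% of all probes tested), and the smallest adjusted p among them was 0.788. At an unadjusted p under 0.05 there were also 0 genes, where 7.60% of all probes passed (4.07% higher and 3.53% lower in ECAT11EGFP/EGFP ESCs, and 3.34% together with a 2-fold change). The signal was higher in ECAT11EGFP/EGFP ESCs for 41 genes and lower for 37. The median log2 difference was 0.0060. Among the genes detected in all lines the differences lay between -0.30 and 0.30, with a median size of 0.079 and a median standard error of 0.16. The genotype groups did not overlap for 11 genes (14.1%), against 23.5% of all probes, 8 of them higher (11.4% of all probes) and 3 lower (12.1%) in ECAT11EGFP/EGFP ESCs. Between #620-6 and #620-2, which share number, slide and sex label, 31 of 78 genes were higher and 47 lower in the knock-in line, with a median difference of -0.040 (1 line each, no test). With 2 lines against 3, no exact permutation test of a single gene can give a p under 0.1.

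By complex, the median genotype difference was -0.015 for complex I, 0.041 for complex II, -0.0019 for complex III, -0.058 for complex IV and 0.090 for complex V. With single lines left out, complex I ran from -0.11 to 0.057, complex II from -0.025 to 0.13, complex III from -0.063 to 0.063 and complex IV from -0.20 to 0.14, whereas complex V stayed between 0.045 and 0.12. Within slide 1, where the knock-in is #620-6 alone, the medians of complexes II, III and IV were -0.13, 0.084 and 0.095. That of complex V was 0.029 with quantile normalization. In complex V, 11 of 15 genes were higher in ECAT11EGFP/EGFP ESCs, as were 47.4% of all probes, and 3 of the 15 were higher without overlap, as were 11.4% of all probes. None had an unadjusted p under 0.05. Atp5c1, the gamma subunit of the rotating stalk, had signals of 6.82, 6.89, 6.97, 7.10 and 7.06. Both wild-type lines lay below all knock-in lines, and the difference was 0.19 with a standard error of 0.14 (adjusted p = 0.870 from limma). Atp5l, subunit g of the membrane part, gave 4.96, 5.16, 5.25, 4.87 and 4.82. Its difference of -0.081 was the most negative of the complex, and the groups overlapped.

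The other complexes each held 1 gene at either end, none of which passed the test. In complex I, Ndufa3, an accessory subunit of the membrane arm, had signals of 2.43, 2.80, 3.01, 2.95 and 2.79. RF8 was the low line, and the wild-type mean of 2.62 ± 0.26 (SD, n = 2) stood against 2.92 ± 0.11 (SD, n = 3). The difference of 0.30 was 0.11 without RF8 and 0.48 without #620-2. Ndufa11, which links parts of the membrane arm, gave 2.93, 2.82, 2.99, 2.68 and 2.18. Here #757-2 was low, and the difference of -0.26 (standard error 0.28) was -0.037 without #757-2, -0.44 without #620-6 and 0.12 within slide 1. In complex II, whose subunits are all encoded in the nucleus, Sdhd, a membrane anchor that binds ubiquinone, gave 4.78, 5.05, 5.02, 5.31 and 5.02, a difference of 0.20 (standard error 0.19) that was 0.066 without RF8, 0.11 without #757-1 and 0.34 without #620-2. Sdhc, the other anchor, gave 3.62, 3.43, 2.99, 3.51 and 3.37, with #620-6 lowest and a difference of -0.23 (standard error 0.22) that ran from -0.34 without #757-1 to -0.084 without #620-6 and was -0.53 within slide 1. Sdha, the catalytic flavoprotein, stayed between 2.13 and 2.39 at its brightest probe, while its other probe ran from 1.83 to 2.50.

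In complex III, the small subunit Uqcr (now Uqcr11) gave 5.39, 5.40, 5.55, 5.53 and 5.41, with a genotype difference of 0.10 (standard error 0.14). The core subunit Uqcrc2 gave 5.28, 5.33, 5.39, 5.13 and 5.17, with a difference of -0.071 that was 0.084 within slide 1. Neither difference was larger than its standard error. In complex IV, Cox4i1, the ubiquitous isoform of a subunit that carries ATP-sensitive regulation, gave 7.14, 6.83, 6.91, 7.61 and 7.33. Both 757 lines were the highest, and the difference of 0.30 (standard error 0.27) ran from 0.13 to 0.48 with single lines left out and was -0.078 within slide 1. Of the genes that are no subunits, Atp5s had the smallest adjusted p of the members (0.788), with 0.20, 0.28, 0.70, 0.44 and 0.47 and a difference of 0.30 (standard error 0.16).

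**Figure D2:**
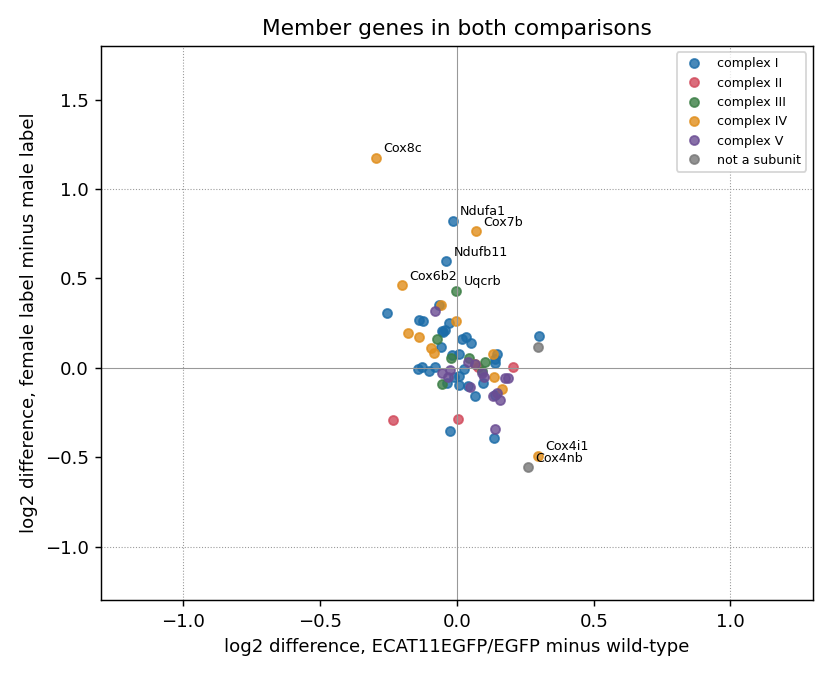
Log2 difference between ECAT11EGFP/EGFP and wild-type ESCs (x axis) against the log2 difference between female-labelled and male-labelled lines (y axis) for the 77 member genes detected in all lines, coloured by complex, with dotted lines at 2-fold. The genes lie between -0.30 and 0.30 on the x axis and between -0.56 and 1.17 on the y axis, where Cox8c is highest. Both axes are computed from the same 5 arrays.

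Between the female-labelled and the male-labelled lines, 0 of 78 genes passed an adjusted p of 0.05, with or without a 2-fold change (0.342% of all probes), and the smallest adjusted p was 0.0949. At an unadjusted p under 0.05 there were 11 genes (14.1%), below the 18.0% of all probes, with 8 higher (9.62% of all probes) and 3 lower (8.39%) in the female-labelled lines. Of these, Cox8c and Cox6a2 also differed by more than 2-fold, as did 7.33% of all probes. Under the alternatives that kept all lines, the Cox8c difference ran from 0.61 to 1.27. Cox6a2 was well above background in RF8 alone of the 3 male-labelled lines, and its fitted difference is not given. The groups did not overlap for 30 genes (38.5%, against 39.0% of all probes), 20 of them higher (18.7% of all probes) and 10 lower (20.3%). The median difference was 0.026, and its median size among the genes detected in all lines was 0.11. Of the 12 fibroblast genes 9 were higher in the female-labelled lines, as were 48.3% of all probes, and 2 passed the test (0.342% of all probes). These 2 were S100a4 and Pdgfra. Pdgfra was well above background in #620-2 and #620-6 alone, the female-labelled lines themselves. It thus entered the test through the group where it is high, and its result is no separate evidence. Without S100a4 the summed signal was highest in RF8, a male-labelled line, as given above. The part of other cells in the values of the members was not tested.

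All 3 X-linked members were higher in both female-labelled lines than in every male-labelled line. Ndufb11, an accessory subunit of complex I (probe at chrX:19048474-19048533 in mm7, the build of the probe positions), had signals of 5.47, 6.00, 6.14, 5.47 and 5.49. The 3 male-labelled lines were nearly level, with a mean of 5.48 ± 0.0084 (SD, n = 3), and the difference was 0.60 (standard error 0.13, adjusted p = 0.133 from limma). Cox7b, a small subunit of complex IV (chrX:101349174-101349233), gave 4.36, 5.15, 5.36, 4.65 and 4.47, and its difference was 0.76 (standard error 0.16, adjusted p = 0.133). For Ndufa1, an accessory subunit needed to assemble complex I (chrX:31947395-31947454), the signals were 5.30, 5.88, 6.27, 5.34 and 5.12. The other probe of Ndufa1 gave 4.59, 5.16, 5.59, 4.57 and 4.42, and the differences of both probes were 0.82 and 0.85 (adjusted p = 0.138 for each). Within slide 1, where RF8 is the sole male-labelled line, the differences were 0.60 for Ndufb11, 0.89 for Cox7b and 0.78 for Ndufa1.

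The rest of the X chromosome was high in the same lines. Their median signal relative to the mean of the 5 lines was -0.28, 0.30, 0.56, -0.24 and -0.33, and that of all 707 X-linked probes well above background on every array was -0.21, 0.19, 0.44, -0.19 and -0.23. Of those probes, 57.3% were higher in both female-labelled lines without overlap. The median difference was 0.76 for the members and 0.53 for the probes of the chromosome. In the female-labelled lines Xist was detected, as stated above.

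All 4 members on chromosome 8 were lower in both female-labelled lines than in every male-labelled line, as were 54.1% of the 1082 probes of that chromosome. The median relative signal of the members was 0.092, -0.32, -0.25, 0.36 and 0.092, and that of all chromosome 8 probes was 0.24, -0.18, -0.24, 0.19 and 0.018. Cox4i1 (chr8:119308998-119309057 in mm7), with the signals given above, differed by -0.49 (standard error 0.19, adjusted p = 0.275). Its neighbour Cox4nb (chr8:119292980-119293039) gave 4.10, 3.56, 3.75, 4.38 and 4.14, a difference of -0.56 (standard error 0.16, adjusted p = 0.196). Ndufb7, an accessory subunit of complex I, gave 5.54, 5.09, 5.23, 5.70 and 5.42, a difference of -0.39 (standard error 0.15). Ndufa13, also known as Grim19, gave 6.43, 6.32, 5.97, 6.69 and 6.38, a difference of -0.36 (standard error 0.19). In this list #757-1 was the highest line for all 4 genes.

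On chromosome 11 the 3 members (Atp5g1, Atp5h and Uqcrq) had a median relative signal of 0.0012, -0.19, 0.14, -0.062 and 0.13, beside 0.17, -0.25, -0.0016, -0.070 and 0.15 for all 1717 probes of that chromosome. In both, #620-2 was the lowest line. The 17 other autosomes had medians between -0.14 and 0.088 in every line. The 66 members there that were detected on all arrays had medians of -0.065, 0.048, 0.0082, 0.057 and -0.048, and 16 of them were higher and 5 lower in the female-labelled lines without overlap (24.2% and 7.58%, against 18.0% and 21.5% of the probes of those chromosomes). Without the members on chromosomes X, 8 and 11, 6 of 68 genes had an unadjusted p under 0.05 by sex label, beside 18.0% of all probes. Of the 68, which include Cox7a1 without a position, 0 passed the adjusted test (0.342% of all probes). Both shares of all probes include the probes on chromosomes X, 8 and 11, so the sets are unlike. The part of copy number in these values was not tested.

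**Figure D3:**
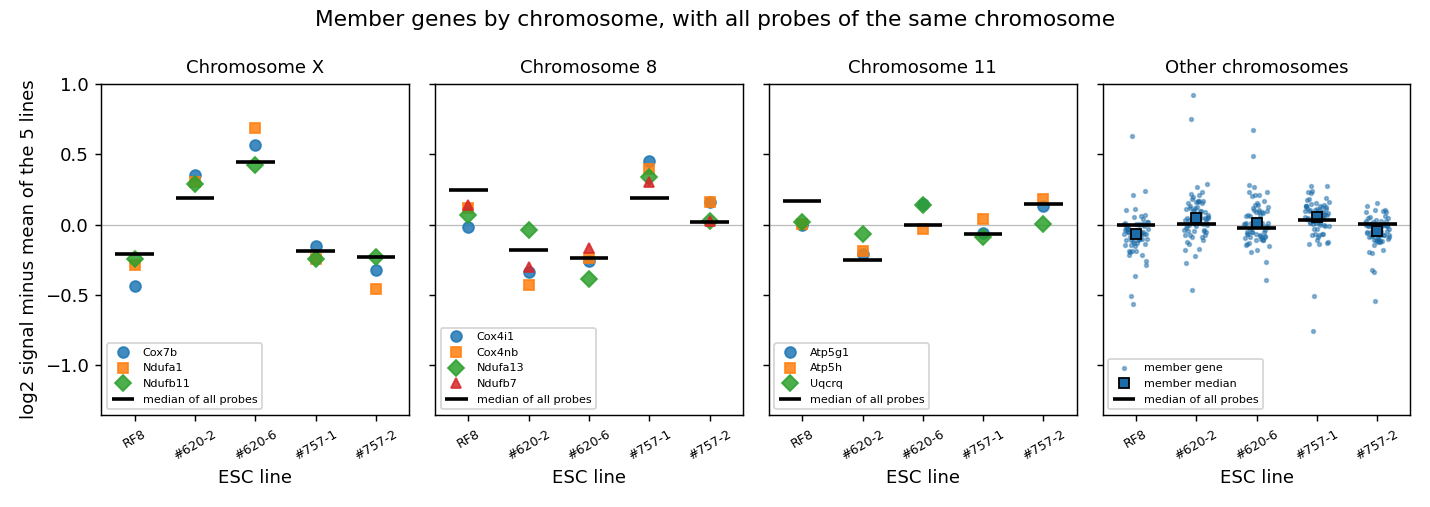
Signal of member genes in each ESC line minus the gene's mean over the 5 lines (log2), in panels for chromosomes X, 8 and 11 and all others, with a bar for the median of all probes of the same chromosomes that were well above background on every array. The X-linked genes lie above 0 in #620-2 and #620-6 and the chromosome 8 genes below it, beside bars of 0.19 and 0.44 and of -0.18 and -0.24. Squares in the last panel are medians of 66 genes.

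Other members with an unadjusted p under 0.05 between the sex labels lay on autosomes. Uqcrb, the ubiquinone-binding subunit of complex III, gave 3.37, 3.94, 3.88, 3.52 and 3.55. Both female-labelled lines were above the rest, with a difference of 0.43 (standard error 0.13, adjusted p = 0.214 from limma). Cox6c gave 5.60, 5.97, 5.95, 5.68 and 5.55, a difference of 0.35, and Ndufa8 gave 3.07, 3.53, 3.42, 3.15 and 3.14, also a difference of 0.35. Both are accessory subunits, of complex IV and complex I. Atp5g2, a gene for subunit c of the ATP synthase ring, was lower in the female-labelled lines, with 6.25, 5.87, 6.00, 6.32 and 6.28 and a difference of -0.34 (standard error 0.13, adjusted p = 0.266). Its other probe gave a difference of -0.44. Atp5l, at an unadjusted p of 0.058 from limma, had a difference of 0.32 (standard error 0.13), without overlap. By complex the median difference was 0.073 for complex I, -0.14 for complex II, 0.054 for complex III, 0.17 for complex IV and -0.050 for complex V. No gene of complex II lay near its median, with Sdhb at -0.28, Sdhc at -0.29, Sdha at 0.0047 and Sdhd at 0.0020. The median of complex IV is the value of Cox7c (standard error 0.55), and 12 of its genes were higher and 3 lower. In complex V 12 of 15 genes were lower, as were 51.7% of all probes. With single lines left out, complex II ran from -0.21 to -0.029, complex III from 0.011 to 0.11, complex IV from 0.094 to 0.23 and complex V from -0.070 to -0.0066. Within slide 1 complex II had -0.046 and complex V 0.0087. Among genes named by the rule, Uqcrh (-0.089), the hinge protein of complex III, differed little. Sdha differed by 0.0047 at its brightest probe but by -0.23 at its other probe. An interaction of genotype and sex label passed an adjusted p of 0.05 for 0 of 78 genes (smallest 0.434), with 1 gene, Cox7c, at an unadjusted p under 0.05 against 10.6% of all probes. Of the 4 combinations of both labels 3 hold 1 line, so the spread in this fit comes from #757-1 and #757-2 alone.

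The isoforms differed in whether they were detected. For the ubiquitous forms of complex IV, Cox4i1, Cox6a1, Cox6b1, Cox7a2, Cox7a2l, Cox7b and Cox8a, as well as for Ndufa4, a protein first assigned to complex I and later to complex IV, all 5 arrays were well above background. Cox6a1 gave 7.14, 7.44, 7.24, 7.55 and 7.28, and Cox8a gave 6.03, 6.41, 6.33, 6.24 and 6.07. Cox6b1 gave 1.68, 1.69, 1.78, 1.91 and 1.77, with both wild-type lines below the knock-in lines. Cox7a2 gave 4.91, 4.92, 4.96, 5.25 and 5.03, and Cox7a2l, a factor that joins complexes III and IV, gave 3.56, 3.82, 3.58, 3.64 and 3.57. Ndufa4 stayed between 5.33 and 5.60. None of these passed the test in either comparison.

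All 3 genes for subunit c, which encode the same mature peptide behind different import sequences, were detected in every line. Atp5g1 gave 6.00, 5.79, 6.15, 5.94 and 6.13, and Atp5g3 gave 6.68, 6.78, 6.74, 6.91 and 6.84, beside the values of Atp5g2 above. In neither Atp5g1 nor Atp5g3 were the groups apart in the genotype or the sex label comparison. No probe carried the names Cox7b2 or Ndufa4l2, and these isoforms are not analysed here.

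The heart and skeletal muscle isoforms were not alike. Cox8b was not well above background on any array. The probe of Cox4i2, the lung isoform of Cox4, was not well above background in RF8, #620-2, #757-1 or #757-2, and its spot on the array of #620-6, which was, had been marked as an outlier and was left out. Cox6a2 had signals of -5.09, -4.31, -4.57, -6.63 and -6.19 and stood well above background in the 3 lines of slide 1 alone. The values of RF8 and #620-6 lay below the weakest signal well above background on either slide 2 array, and that of #620-2 lay above this limit in #757-1 (-4.49) but not in #757-2 (-4.22). Slide and line cannot be told apart for signals this low. Within slide 1 the female-labelled lines were higher than RF8 by 0.65. Cox7a1, by contrast, was well above background in all 5 lines, with 2.46, 2.56, 2.47, 2.02 and 2.49. Here #757-1 was the low line and the other lines were nearly level. The Cox7a1 probe has no deposited position. Of 11 heart and skeletal muscle markers, 5 were well above background on all arrays, and their list's summed signal was 1.93, 1.01, 1.01, 0.87 and 1.25. The 5 were Acta1, Actc1, Myh6, Myh7 and Des, while Ckm was well above background on no array and the other 5 on 3 or 4. Their part in the values of the isoforms was not tested.

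Both isoforms known from testis were detected on all arrays. Cox6b2 gave -0.13, 1.13, 0.19, 0.66 and 0.063. The highest and the lowest line were both wild-type, and the means of 0.50 ± 0.89 (SD, n = 2) and 0.30 ± 0.31 (SD, n = 3) overlapped in spread. Cox8c (chr12:100395762-100395820 in mm7) gave -3.79, -2.30, -2.73, -3.72 and -3.56. Both female-labelled lines were above the 3 male-labelled lines, whose mean was -3.69 ± 0.12 (SD, n = 3), and the difference of 1.17 (standard error 0.19) had an adjusted p of 0.0949 from limma. Within slide 1 it was 1.27, and under the alternatives that kept all lines it ran from 0.61 to 1.27. On slide 2, where Cox8c gave -3.72 and -3.56, the weakest signal well above background was -4.49 and -4.22. Between the genotypes the difference of -0.30 (standard error 0.56) was 0.31 within slide 1 and ran from -1.04 to 0.45 with single lines left out. Of 8 testis and germ cell genes, 5 were well above background on all arrays and Pgk2 on none, and their list's summed signal lay between 2.21 and 2.45 in the 5 lines.

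Cox7c, a ubiquitous small subunit of complex IV, varied among the lines of each group. Its signals were 3.98, 2.88, 4.02, 2.59 and 3.26 (chr13:83112800-83113677 in mm7, an interval longer than the 60 bases of a probe). RF8 and #620-6 were high, and #620-2 and #757-1 low, so that each group of both comparisons held high and low lines. The genotype difference was -0.14 (standard error 0.56) and the sex label difference 0.17 (standard error 0.55). The interaction of both labels was 2.19 (standard error 0.58, adjusted p = 0.434 from limma), in the fit whose limits are given above. The gene has 1 probe.

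**Figure D4:**
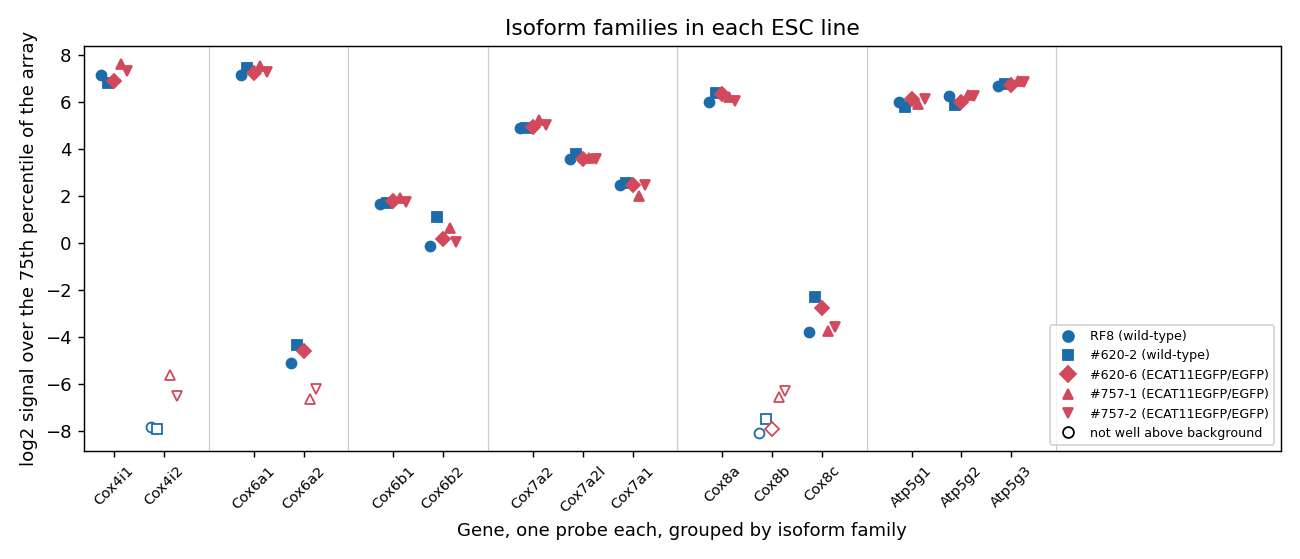
Log2 signal over the 75th percentile of the array for the isoform families of complex IV and ATP synthase subunit c in each ESC line, 1 probe a gene, with blue for wild-type, red for ECAT11EGFP/EGFP and open symbols where the probe was not well above background. Cox4i2 and Cox8b have open symbols in every line with a value and Cox6a2 in #757-1 and #757-2, while Cox7a1 lies between 2.02 and 2.56. Heights of different genes are not comparable, since they come from different probes.

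Further probes of the same genes were set beside the brightest one. There were 28 such probes for 24 genes, and 24 of the 28 were well above background on all arrays. The other 4 carried accessions of single cDNA clones rather than of RefSeq transcripts. For Ndufs1, Ndufs4 and Sdhc such a probe never stood well above background, while the brightest probe of the gene did on all arrays. By a limit set after the values were seen, 4 of the 25 further probes tested differed from the brightest by more than 0.5 on the log2 scale in 1 or both comparisons, and all 4 came from cDNA clones. That of Atp5f1 (now Atp5pb), the stalk subunit b, gave -5.03, -3.13, -3.39, -1.74 and -2.51, while the brightest probe ranged over 0.12. That of Ndufa3 had a genotype difference of -0.47, against 0.30 for the brightest, and a sex label difference of 0.80, against 0.18. That of Ndufb8, an accessory subunit of complex I, differed by 0.57 between the sex labels, against -0.051. That of Cox5a, a subunit of complex IV, was well above background on slide 1 alone. The limit of 0.5 is wide beside the median size of the member differences (0.079 by genotype, 0.11 by sex label). Some RefSeq probes within it also parted from the brightest. The further Atp5a1 probe had a genotype difference of 0.40, against 0.090, and a sex label difference of -0.42, against -0.027. For Ndufa12 the sex label differences were -0.18 and -0.25, against 0.077. For Ndufa1 the gaps were no larger than 0.030.

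Promoter sequences were examined because the members are known targets of shared regulators. RefSeq promoter windows (GRCm38.p6, 250 bases before to 50 after the start) were found for 65 of the 80 genes. The motif of NRF-1, a known activator of respiratory genes, searched on both strands as GCGCA, any base and GCGC, stood in 17 genes (26.2%), against 5.19% of 27025 genes and 9.77% of the 12326 genes with a probe tested. CCGGAAG, for ETS factors such as GABP (NRF-2), stood in 16 (24.6%, against 9.93% and 17.0%), and AAGATGGC, for YY1, in 10 (15.4%, against 3.19% and 4.59%). At least 1 of the 3 was found in 37 genes (56.9%), against 27.6% of the genes with a probe tested. The shares were 9.23% for TATAAA (15.7% and 10.7%), 41.5% for CCAAT (41.1% and 42.5%) and 33.8% for CCCGCCC (27.9% and 47.7%). Matches of different motifs may overlap. The median GC content was 57.3% in the member windows, 52.7% over all genes and 60% over the genes with a probe tested. Among genes with a window, the YY1 motif stood in 7 of 31 of complex I and 3 of 14 of complex V, and in none of the 19 of complexes II, III and IV. The NRF-1 motif stood in 7 genes of complex I, 2 of complex II, 1 of complex III, 1 of complex IV and 6 of complex V.

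**Figure D5:**
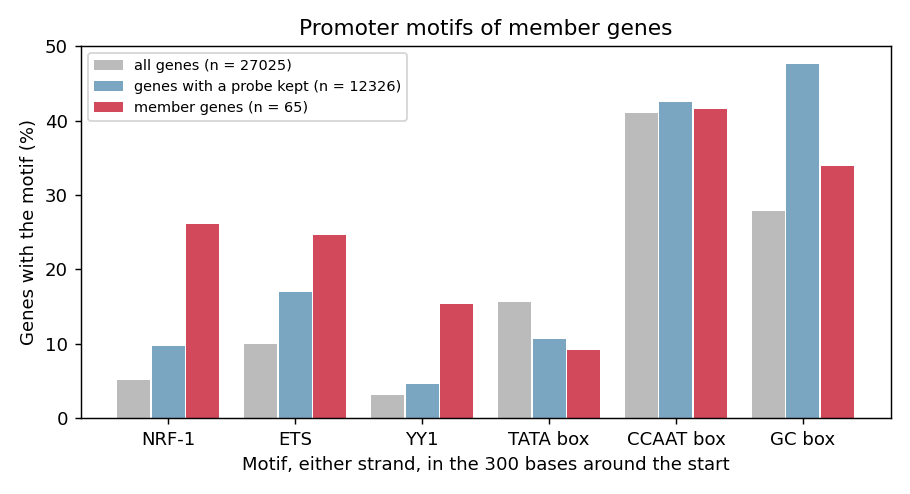
Share of genes (%) whose promoter window holds each of 6 motifs on either strand, in bars for all genes, genes with a probe tested and the 65 member genes with a window. The member bar stands above both other bars for NRF-1 (26.2%), ETS (24.6%) and YY1 (15.4%), while all bars for the CCAAT box are alike at 41.1% to 42.5%.

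The 250 bases before the start are shown for Cox8a and Cox8b, isoforms that differed in detection, for Cox7a1 and Cox7a2, which did not, for Cox6a1, the 1 gene with an NRF-1 match among the 12 complex IV genes that had a window, and for Atp5g2. Capitals mark motif matches on either strand, and matches that reach past the start are not in the stretch. Cox6a1 (chr5:115348959-115349208, minus strand) has NRF-1 matches from -162 to -153 and from -117 to -108, and 26 CpG. Cox8a (chr19:7217617-7217866, minus strand), detected in all lines, has 11 CpG, and Cox8b (chr7:140900447-140900696, minus strand), detected in none, has 1. Cox7a1 (chr7:30183921-30184170, plus strand) has 4 CpG and Cox7a2 (chr9:79759854-79760103, minus strand) 14, and both were detected in all lines. Atp5g2 (chr15:102671048-102671297, minus strand) has an NRF-1 match from -42 to -33.
Cox6a1: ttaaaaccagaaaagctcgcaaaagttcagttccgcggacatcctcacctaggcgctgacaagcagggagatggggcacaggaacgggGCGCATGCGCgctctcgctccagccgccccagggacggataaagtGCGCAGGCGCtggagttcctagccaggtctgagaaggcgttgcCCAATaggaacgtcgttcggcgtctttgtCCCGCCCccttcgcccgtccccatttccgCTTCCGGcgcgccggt
Cox8a: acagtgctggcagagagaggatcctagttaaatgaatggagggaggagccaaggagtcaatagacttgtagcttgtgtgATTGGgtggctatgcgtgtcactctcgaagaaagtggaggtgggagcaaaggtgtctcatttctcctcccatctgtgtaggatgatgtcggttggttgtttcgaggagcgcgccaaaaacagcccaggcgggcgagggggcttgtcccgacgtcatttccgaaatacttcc
Cox8b: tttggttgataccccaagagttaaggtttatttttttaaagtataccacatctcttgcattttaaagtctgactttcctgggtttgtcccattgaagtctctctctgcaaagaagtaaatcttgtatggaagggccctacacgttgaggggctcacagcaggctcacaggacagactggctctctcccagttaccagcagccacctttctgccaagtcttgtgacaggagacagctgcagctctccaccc
Cox7a1: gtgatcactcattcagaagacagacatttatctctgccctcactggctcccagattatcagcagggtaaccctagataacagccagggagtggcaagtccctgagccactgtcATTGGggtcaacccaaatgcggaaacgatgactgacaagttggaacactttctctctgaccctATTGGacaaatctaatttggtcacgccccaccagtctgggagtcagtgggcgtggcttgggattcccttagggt
Cox7a2: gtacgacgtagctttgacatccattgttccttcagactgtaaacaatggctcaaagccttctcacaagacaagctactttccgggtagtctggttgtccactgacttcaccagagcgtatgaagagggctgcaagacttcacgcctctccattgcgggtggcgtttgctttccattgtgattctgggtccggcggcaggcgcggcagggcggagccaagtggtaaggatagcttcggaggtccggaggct
Atp5g2: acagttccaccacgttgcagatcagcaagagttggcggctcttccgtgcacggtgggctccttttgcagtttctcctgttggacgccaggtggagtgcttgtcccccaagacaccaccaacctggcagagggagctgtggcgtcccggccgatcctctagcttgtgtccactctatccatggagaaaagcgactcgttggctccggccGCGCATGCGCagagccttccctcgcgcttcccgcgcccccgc

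Genes that act with the subunits were examined as lists. Of 19 further subunit and electron carrier genes, 6 had a probe under their name, all well above background on every array. Cycs, somatic cytochrome c, gave 5.29, 5.42, 5.26, 5.01 and 4.93, with a genotype difference of -0.29 (standard error 0.18). Cyct, the testis form, gave 0.021, -0.12, 0.21, -1.18 and 1.94, and the most distant lines were both #757 lines of the same genotype. Of 44 assembly factor genes 43 were on the array, 42 of them detected in all lines. They had a median genotype difference of 0.021 and a median sex label difference of -0.020. By limma 0 of the 43 were called in either comparison, with 0 and 4 at an unadjusted p under 0.05 (7.60% and 18.0% of all probes). Among the 4 was Cox14 (0.64, adjusted p = 0.124 from limma, higher in the female-labelled lines).

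Among 15 regulators of mitochondrial genes, 0 were called in either comparison. At an unadjusted p under 0.05 there were 1 and 3, beside 7.60% and 18.0% of all probes. Tfam, which packages mitochondrial DNA, stayed between 4.85 and 4.95 in all lines. Tfb1m, a methyltransferase for mitochondrial ribosomal RNA, gave 1.85, 2.15, 2.68, 2.44 and 2.54, with both wild-type lines lowest and a difference of 0.55 (standard error 0.18, adjusted p = 0.591). Ppargc1a, the coactivator PGC-1alpha, was well above background on the slide 1 arrays of #620-2 and #620-6 alone, at -5.50 and -5.31, levels below the weakest signal well above background on slide 2. Of the factors whose motifs were searched, Nrf1, Gabpa and Yy1 were detected in all lines, with genotype differences of 0.18, 0.15 and 0.016. Of 7 carriers and uncoupling proteins, 0 of the 6 tested were called. The ADP/ATP carrier genes Slc25a5, on the X chromosome, and Slc25a4, on chromosome 8, had sex label differences of 0.31 and -0.30. Of 15 HIF-responsive genes 0 were called in either comparison, with median differences of -0.047 by genotype and 0.18 by sex label. At an unadjusted p under 0.05 there were 1 and 5 of them, beside 7.60% and 18.0% of all probes.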

How the data were processed

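Total RNA of 5 ESC lines was hybridized to one-colour Agilent arrays. The authors extracted the scans with Feature Extraction 9.5.3.1 and deposited, per the file headers, the intensity of each spot after background correction, not normalized between arrays. A deposited table of log2 values for these arrays was used here as an alternative, with column medians between -0.10 and 0.077. Its differences between arrays had a slope of 1.00 against those of the intensities over 20636 probes. Its scale is therefore log2 with each probe shifted by a constant, and how that constant was set is not given in the sources used here.

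Here, control spots were left out and spots marked as outliers or as non-uniform were set missing. Intensities were divided by the 75th percentile of the array, after the study's methods, put on the log2 scale and averaged over spots of a probe. A probe was well above background where at least a fraction of 0.5 of its spots was, by the files' own mark. Probes Present on at least 1 array (a positive spot above background that was neither saturated nor marked) were tested with limma 3.58.1 in R 4.3.3 by genotype and by sex label, with Benjamini-Hochberg adjustment over all of them. Genes were called past 2-fold at an adjusted p under 0.05. The methods' t-test was an alternative. Medians by complex and chromosome are descriptions. The number of arrays limits the precision. The code was tested on simulated data.

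Of the 108 member probes, 96 were named through their accession and 12 through their symbol in the RefSeq gene table (GRCm38.p6). Probe positions are those of mm7, as deposited, and the probe of Cox7a1 has none. Whether a probe lies in a coding or an untranslated part is not analysed here. The genes named are the extremes of each complex in each comparison, the isoform families, the X-linked members and the 3 widest ranges. Chromosome 8 members, members with an unadjusted p under 0.05, Atp5s and 4 further probes were added after their values were seen. The members and the lists were chosen with earlier results of these data known. Alternatives were the deposited log2 table, normexp (offset 50), quantile normalization, a stricter filter, no filter, marked spots kept, the slide as a block, the other label as a covariate, a variance trend, all member probes, each line left out in turn and, chosen after seeing the data, the pair of lines numbered 620. Figures were drawn with matplotlib 3.10.9.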

Additional observations from a re-analysis of the deposited data

How the results depend on the processing

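The count of member genes called was 0 in both comparisons under every alternative run. The genotype comparison called 1 of all probes as reported. It called 0 with normexp (258 probes past 2-fold at an unadjusted p under 0.05), quantile normalization (856), no filter (1828), the stricter filter (383), the sex label as a covariate (1380), the slide as a block (1750, #620-6 alone against RF8 and #620-2) and the methods' t-test (583), and 0 to 0 with single lines left out (840 to 1566). The sex label comparison called 99 probes as reported, 287 with normexp, 208 with quantile normalization, 27 without a filter, 149 with the slide as a block (RF8 alone against the 620 lines), 0 with genotype as a covariate (2556 past 2-fold at an unadjusted p under 0.05), 302 with a variance trend, 2 by the methods' t-test and 0 to 88 with single lines left out (0 without #620-2, #620-6, #757-1 or #757-2). The median genotype difference of the members ran from -0.052 without RF8 to 0.066 without #620-2. With the slide as a block, genotype differences turned to 0.12 for Ndufa11, 0.084 for Uqcrc2, -0.078 for Cox4i1, 0.31 for Cox8c and 0.19 for Atp5l. With single lines left out they ran from -1.04 to 0.45 for Cox8c and from -0.21 to 0.021 for Atp5l, and sex label differences ran from -0.065 to 0.061 for Sdha and from -0.19 to 0.011 for Uqcrh. The cause was not tested. With a variance trend Ndufb11 had an adjusted p of 0.036 at less than 2-fold. Medians by complex also moved beyond the spread of lines with the slide as a block and with single lines left out, with the values given above. With genotype and sex label in 1 fit, the genotype medians of complexes III and IV were 0.054 and 0.00064. By sex label, complexes I, II and IV had 0.12, -0.083 and 0.24 with quantile normalization, complex IV had 0.11 without a filter and complex II -0.23 over all member probes. In #620-6 against #620-2, a contrast chosen after seeing the data, complexes I and II had -0.085 and -0.14. Where a line is left out and a group has 1 line, that line is assumed to vary like the others. No paired analysis was possible because wild-type and knock-in lines share only 1 line number (620), which gives 1 pair. Signal over background limits Cox4i2, Cox6a2 and Cox8b.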
